A study of Mus musculus with 20 samples.

Results

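Integrins and focal adhesion genes were described in 20 single cells of the inner cell mass of mouse blastocysts. The group was set as 36 named genes, 15 integrin subunits and 21 proteins of focal adhesions, of which 33 had a probe set annotated to them alone and 25 were measured above the background of the arrays in at least 3 cells, a filter that 51% of all genes with a probe set passed. Fermt1, Ptk2 and Nedd9 were not analysed here. All cells came from C57BL/6 blastocysts at E3.5 with no treatment, and each array held the amplified cDNA of 1 cell. The labels gave 1 group of 20 cells and tied no cell to an embryo. According to the series design, 55 cells had been picked and 50 of them were positive for Oct4 and negative for Cdx2.

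Integrins are receptors of an alpha and a beta subunit that span the plasma membrane and bind the extracellular matrix. Talin and kindlin bind the beta tail inside the cell and switch the receptor on, and vinculin, the ILK complex, alpha-actinin and other adaptors tie it to actin filaments. In the blastocyst the primitive endoderm lays down a basement membrane of laminin and collagen IV on which the epiblast comes to rest.

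Cells were compared in 2 clusters found from 500 other genes, with all genes of the group left out. The primitive endoderm-like (PrE-like) cluster held cells 3, 4, 5, 6, 8, 10, 11, 15, 17 and 20, and the epiblast-like cluster the other 10. Gata4, a transcription factor of primitive endoderm, lay above the floor in 10 PrE-like and 0 epiblast-like cells. Fgf4, a growth factor made by epiblast, lay above it in 0 PrE-like and 10 epiblast-like cells. The clusters were not far apart (mean silhouette 0.115), they came from the same arrays, and cells are not replicates, so differences between them are given as descriptions with no p-value. Levels are log2(intensity + 8.77) after quantile normalization, 3.29 is the lowest value possible, and the floor of an array, set at the 95th percentile of 198 probe sets for genes that belong to unrelated tissues, lay between 6.90 and 7.66. Differences are PrE-like minus epiblast-like means on this scale, with SD over n = 10 cells each. Of 10 measured primitive endoderm markers 9 averaged higher in PrE-like cells. Hnf4a did not (-2.44) and was above the floor in 6 PrE-like and 10 epiblast-like cells. Sox7, Foxa2, Dab2, Amn and Lrp2 of that list were above it in 0 to 2 cells. Of 12 measured epiblast markers 11 averaged lower in PrE-like cells, Bmp4 by little (-0.14), and Tbx3 averaged higher (0.84). The trophectoderm markers Elf5, Gata3, Krt7, Krt18, Krt19 and Atp12a lay above the floor in 0 cells. The 7 others of that list did so in 5 cells (Lgals3) to 20 cells (Hand1, at 13.73 ± 0.07 in PrE-like and 13.66 in epiblast-like cells). Cdx2 was above the floor in 8 PrE-like and 7 epiblast-like cells, with means near it (7.48 and 7.37). The score of these 7 ranged from -0.70 to 0.67 in PrE-like cells and from -1.65 to 1.09 in epiblast-like cells. The score of G2 and M phase genes was lower in PrE-like cells (-0.64 ± 1.26) than in epiblast-like cells (0.64 ± 0.47), with the lowest values in cells 4, 8, 20 and 17. Its part in the differences was not tested.

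The measured laminin-binding integrin subunits Itga3, Itga6 and Itgb1 averaged higher in PrE-like cells, Itgb1 by the probe set used but not by most of its others. Tln1, Fermt2 and Vcl, of the talin, kindlin and vinculin set, averaged lower there. Of the 25 measured genes, 11 had the higher mean in PrE-like cells and 14 the lower. Of all 9282 genes tested, 4180 had the higher mean there and 5102 the lower, a split near that of the group. Counts of direction for the smaller sets below have this same background. The mean was higher by at least 1 for 3 genes (Parvb, Tns3 and Ilk), against 8.16% of the 9282 genes tested. It was lower by at least 1 for 4 genes (Vcl, Itgb7, Fermt2 and Itgb5), against 11.9% of all genes. These shares were near those of all genes, of which 20% differed by at least 1 either way. The median difference was -0.35 for the group and -0.05 for all genes. The group's median was unstable, at -0.06 without cell 16, -0.17 without cell 19 and -0.0021 with clusters found from 1000 genes, and the count lower by at least 1 was 2 without cell 19 and 7 with those clusters. Both medians came to 0.03 with the floor applied, that is, with each value below it replaced by it, and 1 gene (Parvb) was then higher and 1 (Vcl) lower by at least 1, where 6.04% of all genes differed by as much. The ranges of the 2 clusters overlapped for all 25 genes, where 0.28% of all genes had ranges apart, and the difference was larger than the larger SD for Itga6, Vcl and Itgb7, where 8.45% of all genes had such a difference.

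**Figure D1:**
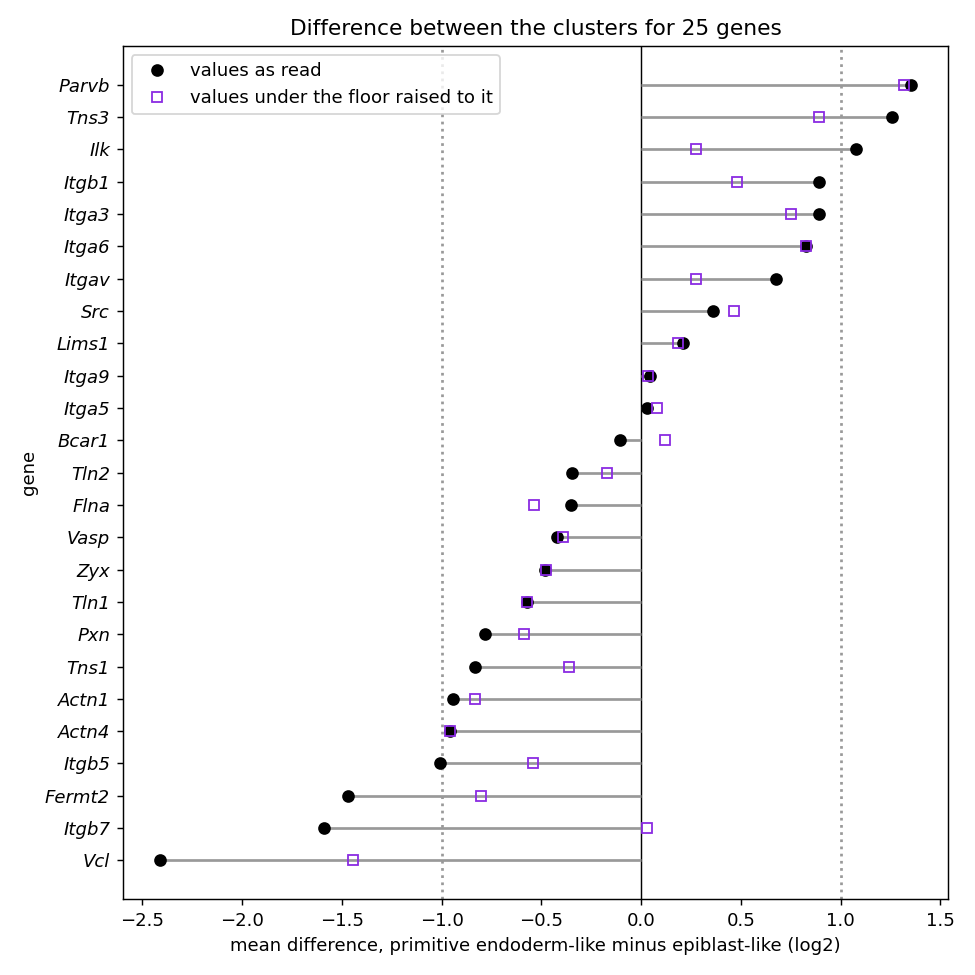
Mean difference (PrE-like minus epiblast-like, log2 scale) of the 25 measured genes, as read (black) and with the floor applied (open squares); dotted lines stand at -1 and 1. Parvb had the highest difference (1.35) and Vcl the lowest (-2.41), and Itgb7 was at -1.59 as read and at 0.03 with the floor applied.

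Itga6, Tln1 and Actn4 lay above the floor in all 20 cells, as did 15% of the 18193 genes on the array. The number of the genes above the floor in a cell was 14 to 22 (mean 18.7 ± 2.36) in PrE-like cells and 17 to 23 (20.3 ± 1.89) in epiblast-like cells. The share of all probe sets above the floor was likewise 24.9% in PrE-like and 25.9% in epiblast-like cells on average, and the floor itself 7.22 and 7.08. Itga7, a laminin-binding alpha subunit known from muscle, lay above the floor in 1 cell. Itgb4, the partner of alpha 6 in hemidesmosomes, lay above it in 0 cells, as did Itga2, Itga8, Itgb3, Itgb6, Itgb8 and Parva.

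**Figure D2:**
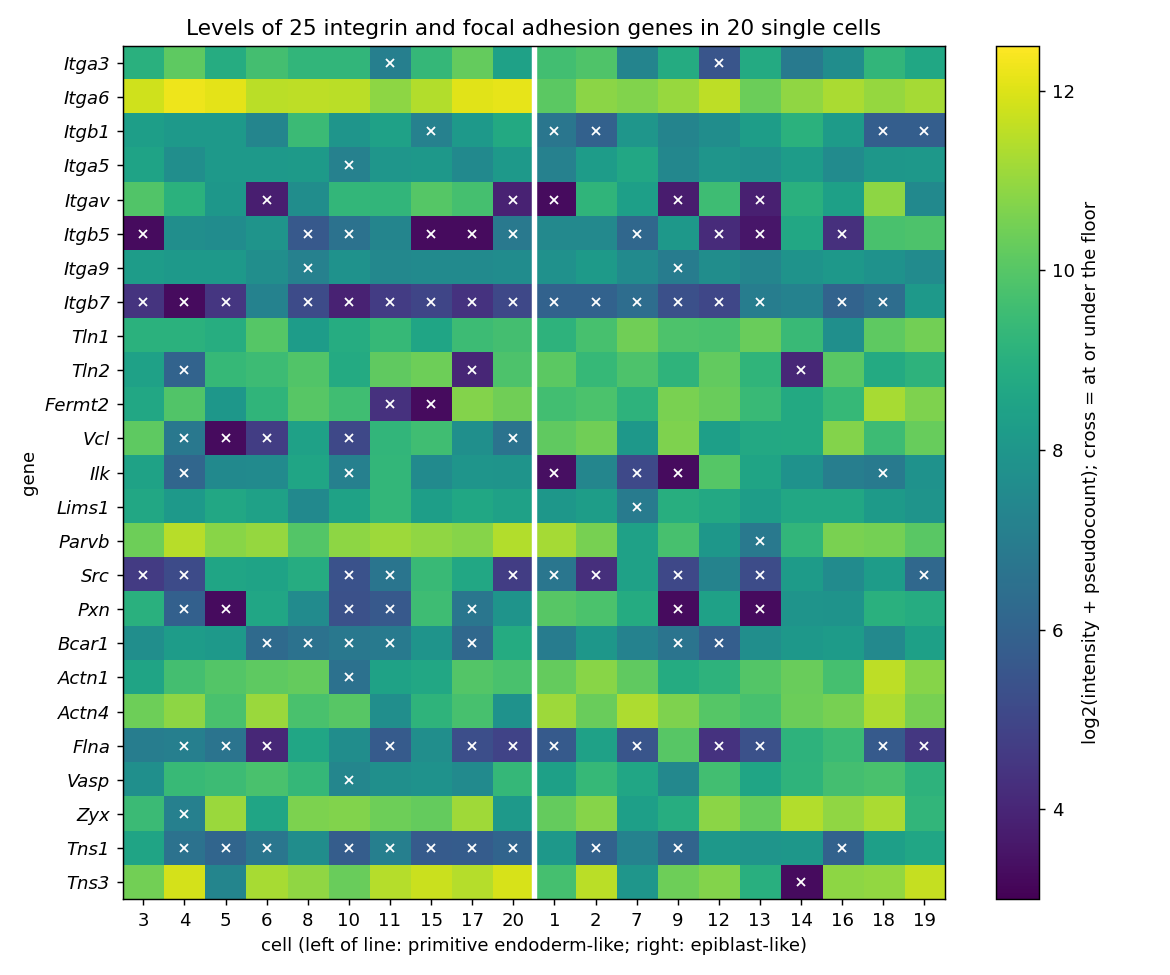
Levels of the 25 measured genes (down) in the 20 cells (across), with PrE-like cells left of the white line and epiblast-like cells right of it; a cross marks a value at or under the floor of its array. Itga6, Tln1 and Actn4 carry no cross, and Vcl carries 5, all in PrE-like cells.

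Itga6, Itga3 and Itgb1 encode the subunits of the laminin receptors alpha 6 beta 1 and alpha 3 beta 1, and each averaged higher in PrE-like cells. Itga6 ranged from 10.88 through a median of 11.70 to 12.25 in PrE-like cells, and from 10.11 through 10.96 to 11.57 in epiblast-like cells. Its means of 11.73 ± 0.43 in PrE-like cells and 10.91 ± 0.43 in epiblast-like ones differed by 0.83, or 1.77-fold on this scale. The spread was narrow in both clusters, and 6 PrE-like cells lay above every epiblast-like cell. A second probe set of Itga6 gave a difference of 0.98 and correlated with the first at r = 0.36 over the 20 cells, which share arrays and clusters.

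Itga3 ranged from 7.09 through 9.26 to 10.27 in PrE-like cells, and from 5.51 through 8.72 to 9.89 in epiblast-like cells. Its means were 9.13 ± 0.90 for PrE-like and 8.24 ± 1.37 for epiblast-like cells, a difference of 0.89 that was smaller than the larger SD. Another probe set of Itga3, above the floor in 17 cells, gave 0.69 (r = 0.79 with the one used). The mean of all its probe sets was 0.39, and includes one above the floor in 0 cells that gave -0.42. Itgb1, the beta subunit shared by most matrix-binding integrins, ranged from 7.19 through 8.09 to 9.49 in PrE-like cells, and from 5.82 through 7.47 to 9.09 in epiblast-like cells. It lay above the floor in 9 PrE-like and 6 epiblast-like cells, and its difference was 0.89, or 0.48 with the floor applied. The direction for Itgb1 depended on the probe set: the one used is of a type that can cross-hybridise, and 4 of the 5 others gave the opposite sign. Their differences lay between -0.57 and 0.25, and the 1 of them above the floor in at least 3 cells gave -0.43 (r = 0.16 with the one used). Itga6 and Itgb1 were above the floor together in 9 PrE-like and 6 epiblast-like cells, and Itga3 and Itgb1 in 8 PrE-like and 5 epiblast-like cells. As Itga6 was above the floor in all 20 cells, the first count is that of Itgb1 alone.

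**Figure D3:**
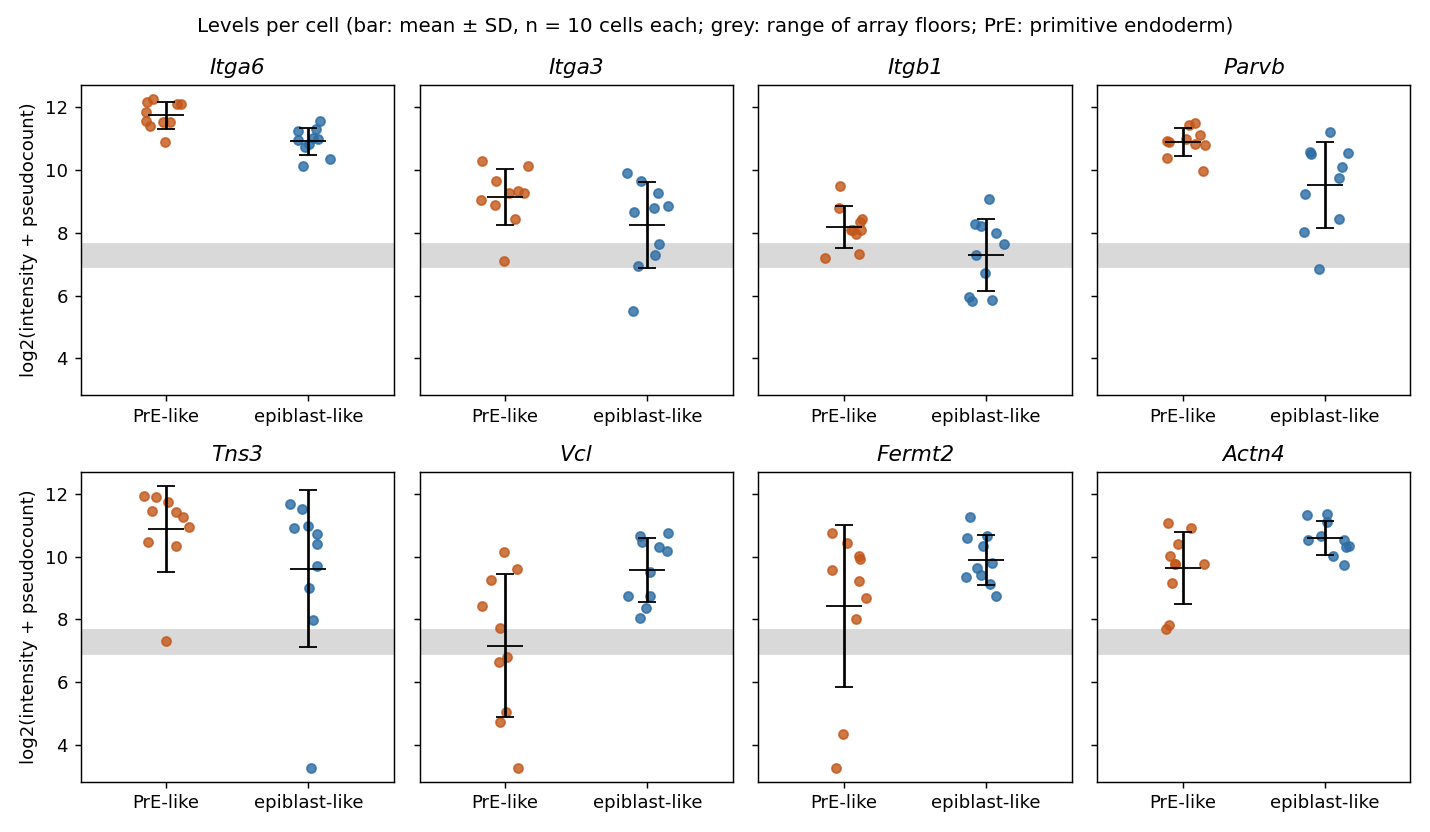
Levels of 8 genes in each cell, with PrE-like cells left and epiblast-like cells right; bars are means with SD over 10 cells each and the grey band is the range of the array floors. Itga6 is tight in both clusters, 5 PrE-like cells are at or under the floor for Vcl, and a few low cells widen Tns3 and Fermt2.

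The laminin receptor genes were set against the basement membrane genes of the same cells. A score is the mean of the centred log2 levels of its genes: Itga3, Itga6 and Itgb1 for the receptors, and Lama1, Lama5, Lamb1, Lamc1, Col4a1, Col4a2, Nid1, Hspg2 and Sparc for the basement membrane. Itgb1 entered the receptor score by the probe set whose direction most of its others did not share. The receptor score was 0.43 ± 0.42 in PrE-like cells, from -0.44 to 0.91, and -0.43 ± 0.27 in epiblast-like cells, from -1.003 to -0.11. Cell 11 was the one PrE-like cell inside the epiblast-like range. The basement membrane score was 0.85 ± 0.34 in PrE-like cells and -0.85 ± 0.88 in epiblast-like cells. As the clusters lay largely apart on these scores, no correlation was taken over all 20 cells.

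Within a cluster the correlation of the scores was near 0. Pearson's r was 0.12 (Spearman's rho 0.32) over the 10 PrE-like cells and -0.12 (rho -0.12) over the 10 epiblast-like cells. Without the 2 cells farthest from the median basement membrane score, r was -0.27 in PrE-like cells and -0.13 in epiblast-like cells. It was -0.40 over the PrE-like cells without cells 4, 8, 17 and 20, and -0.36 over the epiblast-like cells without cell 16. For Itga6 alone, r with the basement membrane score was 0.37 in PrE-like cells, or 0.15 without those 2 cells, and 0.18 in epiblast-like cells, or -0.29 without them. These values describe few cells, and both scores of a cell come from the same array. Lama1, a laminin alpha chain, averaged 11.58 ± 0.95 in PrE-like cells and 6.59 ± 2.93 in epiblast-like cells, and its r with Itga6 was 0.15 within the PrE-like and 0.16 within the epiblast-like cluster.

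**Figure D4:**
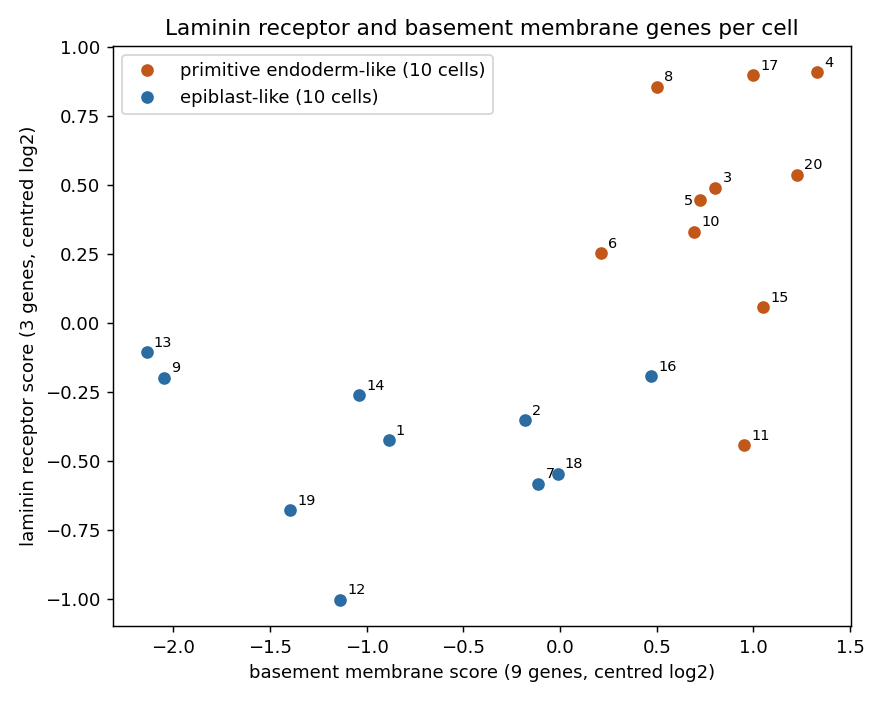
Laminin receptor score (mean centred log2 level of 3 genes) against basement membrane score (9 genes) for each numbered cell, PrE-like in orange and epiblast-like in blue. The receptor scores of the clusters do not overlap except for cell 11 (-0.44), and within a cluster r is 0.12 (PrE-like) and -0.12 (epiblast-like).

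Among the receptors of fibronectin and vitronectin, which bind the RGD motif, Itgav stood out for its spread. Itgav ranged from 3.79 through 9.15 to 9.99 in PrE-like cells, and from 3.29 through 8.39 to 10.88 in epiblast-like cells. It lay above the floor in 8 PrE-like and 7 epiblast-like cells, so both clusters held cells with a clear signal and cells with none above background. Itgb5, a beta partner of alpha v, ranged from 3.29 through 6.70 to 7.91 in PrE-like cells and from 3.56 through 7.48 to 9.83 in epiblast-like cells. Its difference was -1.01, its 3 other probe sets above the floor in at least 3 cells gave -0.69 to -0.72, and with the floor applied it was -0.54. Itgav and Itgb5 were above the floor together in 3 PrE-like and 4 epiblast-like cells.

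Itga5, the alpha subunit of the fibronectin receptor, was nearly level, from 7.17 through 8.08 to 8.51 in PrE-like cells and from 7.17 through 7.99 to 8.69 in epiblast-like cells. Itga9, which binds tenascin and other ligands, was as even, from 7.18 through 7.65 to 8.26 in PrE-like cells and from 7.01 through 7.74 to 8.17 in epiblast-like cells. Their levels lay close to the floor, and 4 probe sets of unrelated tissue genes were above the floor in all 20 cells with means of 7.57 to 9.16. How much of such signal is cross-hybridisation was not tested. The even level of Itga5 was that of the probe set used. Another, above the floor in 11 cells, varied more, with an SD of 1.55 in PrE-like and 0.87 in epiblast-like cells. It gave a difference of -0.27 and correlated with the one used at r = 0.35. Itgb7, a beta subunit known from lymphocytes, was above the floor in 1 PrE-like and 2 epiblast-like cells. It ranged from 3.29 through 4.59 to 7.20 in PrE-like cells and from 5.04 through 6.22 to 8.15 in epiblast-like cells, and its difference of -1.59 was 0.03 with the floor applied.

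All 4 measured genes of the talin, kindlin and vinculin set averaged lower in PrE-like cells, although Tln2 averaged higher there without cells 4, 8, 17 and 20. Vcl, which encodes vinculin, ranged from 3.29 through 7.27 to 10.14 in PrE-like cells and from 8.05 through 9.84 to 10.75 in epiblast-like cells. It lay above the floor in 5 PrE-like cells and all 10 epiblast-like cells. Its difference was -2.41, or -1.44 with the floor applied, and 6 PrE-like cells lay below every epiblast-like cell. The other probe set of Vcl was above the floor in 0 cells.

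Fermt2, which encodes kindlin-2, ranged from 3.29 through 9.40 to 10.74 in PrE-like cells and from 8.76 through 9.71 to 11.27 in epiblast-like cells. Cells 15 and 11 were the 2 PrE-like cells under the floor, and the difference of -1.47 was -0.80 with the floor applied and -2.70 without cells 4, 8, 17 and 20, those with the lowest G2 and M phase scores. Another probe set of Fermt2 gave -1.26 but did not follow the first from cell to cell (r = -0.14). Tln1, the main talin gene of most tissues, ranged from 8.26 through 9.07 to 9.98 in PrE-like cells and from 7.72 through 9.80 to 10.46 in epiblast-like cells, a difference of -0.57. Another probe set of Tln1, above the floor in 12 cells, gave -0.63 (r = 0.32 with the one used). The mean of all its probe sets gave -0.25, and includes one above the floor in 1 cell that gave 0.44. Tln2 ranged from 4.005 through 9.44 to 10.42 in PrE-like cells and from 4.04 through 9.29 to 10.22 in epiblast-like cells, and its difference of -0.35 was well inside that spread and turned to 0.45 without cells 4, 8, 17 and 20. Tln1, Fermt2 and Vcl were above the floor together in 3 PrE-like and 10 epiblast-like cells.

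The bases before the starts of Vcl and Fermt2, and of Parvb and Tns3, are shown because these were the 2 adaptor genes with the lowest and the 2 with the highest difference, a choice made after the values were seen. Each is the 250 bases before the start of the gene in RefSeq (GRCm38.p6), 5′ to 3′ on the strand of the gene. Capitals mark the CArG box, the element bound by serum response factor, and GGGCGG, the core of the Sp1 site, on either strand, with overlapping matches of GGGCGG in Vcl run together. The windows are chr14:20929148-20929397 (plus strand) for Vcl, chr14:45530066-45530315 (minus strand) for Fermt2, chr15:84231793-84232042 (plus strand) for Parvb and chr11:8664536-8664785 (minus strand) for Tns3.
Vcl: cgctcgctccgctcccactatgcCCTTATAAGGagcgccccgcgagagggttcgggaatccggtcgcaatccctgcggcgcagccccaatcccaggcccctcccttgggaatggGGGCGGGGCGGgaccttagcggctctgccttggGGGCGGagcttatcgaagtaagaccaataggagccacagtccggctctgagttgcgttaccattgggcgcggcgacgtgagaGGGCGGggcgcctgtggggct
Fermt2: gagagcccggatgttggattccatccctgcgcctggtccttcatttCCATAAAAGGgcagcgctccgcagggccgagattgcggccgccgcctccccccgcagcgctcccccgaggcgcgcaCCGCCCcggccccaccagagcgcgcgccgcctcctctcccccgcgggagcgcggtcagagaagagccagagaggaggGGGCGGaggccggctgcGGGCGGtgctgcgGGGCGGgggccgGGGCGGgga
Parvb: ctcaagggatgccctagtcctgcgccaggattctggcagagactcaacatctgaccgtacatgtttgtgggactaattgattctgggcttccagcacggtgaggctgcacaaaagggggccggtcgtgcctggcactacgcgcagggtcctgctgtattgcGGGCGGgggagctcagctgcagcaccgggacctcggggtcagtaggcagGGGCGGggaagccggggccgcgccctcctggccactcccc
Tns3: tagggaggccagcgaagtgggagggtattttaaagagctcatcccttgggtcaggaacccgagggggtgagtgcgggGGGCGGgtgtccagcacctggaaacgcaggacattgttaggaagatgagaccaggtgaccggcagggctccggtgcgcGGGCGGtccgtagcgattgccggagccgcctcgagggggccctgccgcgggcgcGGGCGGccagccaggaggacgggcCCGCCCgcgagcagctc
A CArG box began 227 bases before the start of Vcl and 204 bases before that of Fermt2, and no marked motif overlapped it. Of the 22 measured genes with a window these were the 2 with a CArG box, which 1.62% of all 27025 genes with a window held. Genes with several starts have several windows and were counted once, in both cases if any window matched on either strand. GGGCGG was found in 17 of the 22 genes and in 35.4% of all, GATAA in 2 and in 25.5% of all, and CATTCC in 4 and in 14.4% of all. The 22 genes had passed the filter on signal in these cells, while all genes with a window had not been filtered. The shares are therefore not like for like and cannot show whether a motif is enriched in adhesion genes. The motifs were also chosen with the values in view, and a match is not a measured binding site.

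ILK, PINCH-1 (Lims1) and parvin form the complex that couples beta 1 tails to actin, and its 3 measured genes averaged higher in PrE-like cells. Parvb, which encodes beta-parvin, ranged from 9.97 through 10.90 to 11.50 in PrE-like cells and from 6.86 through 9.91 to 11.21 in epiblast-like cells. Its means of 10.88 ± 0.45 in PrE-like cells and 9.52 ± 1.37 in epiblast-like ones differed by 1.35, or 2.55-fold on this scale. The PrE-like cells were close together, and 5 epiblast-like cells lay below all of them. Ilk ranged from 6.12 through 7.73 to 9.29 in PrE-like cells and from 3.29 through 7.21 to 10.01 in epiblast-like cells, and its difference was 1.08, or 0.27 with the floor applied. Lims1 ranged from 7.52 through 8.47 to 9.30 in PrE-like cells and from 6.95 through 8.29 to 8.96 in epiblast-like cells. It lay within the levels of the unrelated-tissue probe sets that were bright in every cell, and another probe set gave -1.33 where the one used gave 0.21. All 3 were above the floor together in 8 PrE-like and 5 epiblast-like cells.

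The signalling adaptors of focal adhesions differed less between the clusters than among the cells of each. Src, the tyrosine kinase that acts with FAK, ranged from 4.65 through 7.60 to 9.44 in PrE-like cells and from 4.28 through 6.97 to 8.45 in epiblast-like cells, and was above the floor in 5 cells of each cluster. Pxn, the scaffold paxillin, ranged from 3.29 through 7.16 to 9.53 in PrE-like cells and from 3.29 through 8.63 to 10.05 in epiblast-like cells, with 5 PrE-like and 8 epiblast-like cells above the floor. Bcar1, the Src substrate p130Cas, ranged from 6.21 through 7.29 to 8.83 in PrE-like cells and from 5.83 through 7.58 to 8.40 in epiblast-like cells, also with 5 PrE-like and 8 epiblast-like cells above it. The differences were 0.36 for Src, -0.78 for Pxn and -0.10 for Bcar1, and that of Bcar1 was 0.12 with the floor applied, one of 5 settings that turned its sign. Src and Pxn were found together in 3 PrE-like and 5 epiblast-like cells.

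Of the 7 proteins that tie adhesions to actin, 6 averaged lower in PrE-like cells. Actn4, an alpha-actinin that crosslinks actin filaments, ranged from 7.69 through 9.76 to 11.07 in PrE-like cells and from 9.73 through 10.54 to 11.35 in epiblast-like cells, a difference of -0.96. Actn1 ranged from 6.55 through 9.71 to 10.26 in PrE-like cells and from 8.85 through 10.22 to 11.54 in epiblast-like cells, a difference of -0.95, or -1.42 without cells 4, 8, 17 and 20. Another probe set of Actn1 gave 0.01, but it was above the floor in 3 cells and its mean of 6.88 was under every array's floor. For both genes several PrE-like cells (3 for Actn4 and 4 for Actn1) lay below every epiblast-like cell. Zyx, the LIM protein zyxin found at adhesions under tension, ranged from 7.14 through 10.34 to 11.16 in PrE-like cells and from 8.37 through 10.52 to 11.40 in epiblast-like cells. Vasp, which promotes actin filament growth, ranged from 7.37 through 8.58 to 9.78 in PrE-like cells and from 7.44 through 9.16 to 9.77 in epiblast-like cells. The Vasp ranges overlapped almost wholly, and for Zyx 2 PrE-like cells lay below every epiblast-like cell. Flna, the crosslinker filamin A, was above the floor in 8 cells with a difference of -0.35, and Tns1, another tensin, in 9 cells with -0.83. The size for Tns1 depended on the probe set. Another, above the floor in 2 PrE-like and 8 epiblast-like cells, gave -2.49 (r = 0.18 with the one used). A further one, above it in 5 cells, gave 0.09.

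Tns3, a tensin that binds beta tails and actin, was the actin linker with the higher mean in PrE-like cells. It ranged from 7.31 through 11.35 to 11.92 in PrE-like cells and from 3.29 through 10.56 to 11.67 in epiblast-like cells. Its difference was 1.26, or 0.89 with the floor applied and 0.81 without cells 4, 8, 17 and 20. Cell 14, at the lowest value possible, set the lower end of the epiblast-like range. Another probe set of Tns3 gave 1.71 and was above the floor in 5 PrE-like and 0 epiblast-like cells.

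The spread of each gene over all 20 cells was tested against that of genes at the same level, with limma's moderated variances and an F test. By this test 0 of the 25 genes and 0 of all 9282 genes (0%) passed, with adjusted p-values of 0.742 to 1 for the group. The F test could call very little. Top2a, with a variance 27.2 times the trend, had an unadjusted p of 0.024 and an adjusted p of 0.742. Fgf4, which marked the clusters and had a ratio of 23.9, had the same adjusted p. The count of 0 therefore says nothing about the spread of the group. At an unadjusted p under 0.05 the counts were 0 of the group and 29 of all genes (0.312%). Tns3 had the smallest unadjusted p of the group (0.0546), with a variance 12.9 times the trend. As a description, the median variance ratio was 3.49 in the group and 1.87 in all genes, and the ratios of Tns3, Itgav, Pxn, Fermt2 and Vcl were above the 90th percentile of all genes.

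Other genes of matrix adhesion were counted from lists of the pathway. Of all genes tested, 8.16% were higher and 11.9% lower by at least 1 in PrE-like cells. Of 10 basement membrane genes 9 were measured, 6 were higher by at least 1 in PrE-like cells and 0 lower, with a median of 1.70. Lama5 (-0.82) and Nid1 (-0.67), both part of the basement membrane score, averaged lower in PrE-like cells by less than 1. Lama1 (4.99), Col4a2 (3.77) and Col4a1 (2.94) had the largest differences of that list, and these genes are also known products of primitive endoderm. Fn1, which encodes fibronectin, averaged 11.79 ± 0.51 in PrE-like cells and 12.36 ± 0.37 in epiblast-like cells, and the list of other matrix ligands had 0 of 3 measured genes higher by at least 1 and 1 lower. The lower one was Lama3, a laminin alpha chain named after its value was seen, at -1.78, or -0.47 with the floor applied. Vtn, which encodes vitronectin, differed by -0.11.

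Of 22 other adhesion adaptors 12 were measured, of which 0 were higher and 3 lower by at least 1. These were Git2 (-1.53), Arhgef7 (-1.50) and Dock1 (-1.44), regulators of small GTPases. With the floor applied Git2 was -0.49, Arhgef7 -1.03 and Dock1 -0.91. Of 13 adhesion kinases and GTPases 9 were measured, with Csk, the kinase that holds Src inactive, lower in PrE-like cells (8.13 ± 1.01) than in epiblast-like cells (9.55 ± 0.68), and Rap1b (-0.43) and Rhoa (-0.40) next. Of 11 actomyosin genes 10 were measured and Myh10, a non-muscle myosin heavy chain, was lower at 8.25 ± 1.61 in PrE-like cells against 9.89 ± 0.65 in epiblast-like cells, while Tpm4 (0.61) and Tpm1 (0.57) were higher by less than 1. Among tetraspanins and other laminin receptors, 4 of 6 were measured and 0 differed by at least 1 either way, with Cd9 at -0.63, Dag1 (dystroglycan) at -0.47 and Cd151 at 0.46. Of 10 leukocyte and other integrins 2 were measured, and Itgb2 differed by 0.01.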

How the data were processed

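Each of the 20 arrays measured the amplified cDNA of 1 cell. The authors' deposited table gives the intensity of each probe set, linear as judged from its values. The software that summarised the probe sets is not given in the sources used here. Of 45101 probe sets, 34945 named 1 gene, 932 several, 9160 none and 64 were controls, by the platform annotation of GEO. A gene was read from its probe set with the highest mean. Arrays were quantile normalized, because their trimmed means (182.5 to 221.2) lay more than 5% apart, and taken as log2(intensity + 8.77), the pseudocount being the median 25th percentile. Between 10.1% and 13.4% of values of an array were at the lower limit of 1. Precision is limited by how far a signal lies over the floor and by the array number. The floor was taken at the 95th percentile of 198 probe sets for unrelated tissue genes and olfactory and vomeronasal receptors, listed after the files were seen. The variance of genes above it in at least 3 cells (9282) was set against a level-dependent trend by limma 3.58.1 squeezeVar in R 4.3.3. An F test with Benjamini-Hochberg adjustment at 0.05 followed. This step was also run on simulated data, in which 200 genes had raised variances and all others lay on the trend. Variances in the real data scatter more widely, so the simulation does not show how many genes the test could call here.

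Ward clustering (scipy 1.17.1) used the 500 genes with the largest variance ratio outside all lists. A running-median trend, written before the limma trend was used, put cell 16 in the other cluster and is kept as an alternative. The members and lists were chosen with earlier results of these data known. Ranges are given for members above the floor in at least 10 cells, or in at least 3 with a difference of at least 1, and means for some of them. Of each other list the 3 genes with the largest difference among those above the floor in at least 10 cells are named. Alternatives were no quantile normalization, other pseudocounts, floors and filters, the mean of all probe sets, cells left out and other clusterings.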

Additional observations from a re-analysis of the deposited data

How the results depend on the processing

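Of the alternatives for the group's summary values, 63 stayed within 1.5 times for a count, the SD over cells of the group's score for a median or the standard error for a correlation, and 5 did not. For named genes 289 differences moved by less than the larger SD. The sign turned for 4 genes. Itgb7 was the one of these with a difference of at least 1, and the others were Tln2 (0.45 without cells 4, 8, 17 and 20), Bcar1 (up to 0.12, in 5 settings) and Itga5 (down to -0.04, in 3). The median difference lay between -0.35 and 0.03. The count of genes higher by at least 1 in PrE-like cells was 3. It was 1 where low values were set to the floor, 2 with the pseudocount 4 times as large or without cells 4, 8, 17 and 20, 4 with clustering on 1000 genes and 3 in the others. The count lower by at least 1 was 4. It was 2 with the pseudocount 4 times as large, 1 with low values set to the floor, 2 without cell 19, and 7 with clustering on 1000 genes, which moved cell 6 to the epiblast-like cluster. In the other settings it was 3 to 5. Raising values to the floor also gave Itgb7 0.027 in place of -1.59. The running-median trend, chosen after seeing the data, moved cell 16 to the PrE-like cluster and gave Tln1 -0.92. Without cells 4, 8, 17 and 20, which had the lowest G2 and M phase scores, Fermt2 was -2.70, Actn1 -1.42 and Tns3 0.81. With the mean of all probe sets, Itga3 was 0.39, Tln1 -0.25, Fermt2 -0.89, Vcl -1.35 and Actn1 -0.31. For each of these genes that mean includes a probe set above the floor in 0 cells or, for Tln1, in 1 cell. The larger pseudocount gave Ilk 0.69 and Itgb7 -0.98, and clustering on 1000 genes gave Itgav 1.48. The correlation of the laminin receptor and basement membrane scores changed sign, from -0.40 (without cells 4, 8, 17 and 20) to 0.13 in PrE-like cells and from -0.36 (without cell 16) to 0.23 (mean of all probe sets) in epiblast-like cells. Between 18 and 25 of the genes passed the detection filter. The variance test of limma called 0 genes of the group and 0 of all genes in each of the 9 settings run, with 28 to 434 of all genes at an unadjusted p under 0.05. As 0 of all genes passed, the count for the group is no result about these genes. The cause of these shifts was not tested. No paired analysis was possible because the labels give 1 group.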
